A study of Mus musculus with 12 samples.

Results

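The SR splicing factor family is represented by 10 genes (Srsf1, Srsf2, Srsf3, Srsf4, Srsf5, Srsf6, Srsf7, Srsf9, Srsf10 and Srsf11), chosen by gene name out of 16514 genes listed for mouse heart. Srsf2 was chosen from its measured values, because its response to aortic constriction differed between diets, and the other 9 members were added by family name. All values of Srsf2 are therefore a description, with no test. All 10 members passed the filter on low values in every comparison.

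The hearts came from male C57Bl/6J mice aged 12 weeks. Transverse aortic constriction (TAC), which narrows the aorta and loads the left ventricle with pressure, was compared with sham surgery. A BCAA-free diet, which lacks leucine, isoleucine and valine, was compared with a BCAA-control diet that contains them. Both diets carried 1% propionate, a short-chain fatty acid, so no group is without it. Feeding began 4 days before surgery, and the hearts were collected 1 week after it. The 4 groups of 3 libraries each are called BCAA-free TAC, control TAC, BCAA-free sham and control sham. Whether each library is a different mouse is not stated in the labels, so the error behind each p-value is that between libraries and could be technical.

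SR proteins bind enhancer sequences in exons through RNA recognition motifs and recruit the spliceosome through tails rich in arginine and serine, which kinases of the SRPK and CLK families phosphorylate. Many SR genes limit their own protein by splicing their transcript into a form that nonsense-mediated decay removes. In mouse heart, loss of Srsf2 (also called SC35) leads to dilated cardiomyopathy with less ryanodine receptor, and Srsf1 sets the splicing of the calcium/calmodulin-dependent kinase gene Camk2d. The values here are reads per gene, so splice forms were not measured.

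Reads recovered for the listed genes came to 29929161 to 46101244 per library. All 9 cardiomyocyte markers were listed, and their summed level was 84974 to 97201 CPM, reads of a gene scaled to a common library total, over the 12 libraries. It was 89180 to 97201 CPM in BCAA-free TAC and 84974 to 89675 CPM in control TAC hearts. In sham hearts it was 87710 to 89528 CPM on the BCAA-free and 85330 to 87293 CPM on the control diet. Of the 9, 4 were higher and 1 was lower in every BCAA-free TAC than in every control TAC library. Control TAC replicate 3 held 336 CPM of 15 liver markers, against 15.5 to 34.6 CPM in the other libraries, and control TAC replicate 2 held 122 CPM of 3 RNA polymerase III transcripts, against 1.59 to 26.3 CPM elsewhere. Alb and several other liver markers were not listed for the BCAA-free sham libraries and are missing from their sums. The main values that rest on these libraries are also given without both. That leaves control TAC replicate 1 as the only library of its group, so these fits and their calls rest on 1 control TAC library. The 5 markers of the TAC response summed to 9207 CPM in that library, against 5831 and 5825 CPM in control TAC replicates 2 and 3. They summed to 5587 to 10599 CPM in BCAA-free TAC hearts. The 10 markers of cell division summed to 5.66 to 15.7 CPM in BCAA-free TAC, 70.3 to 84.0 CPM in control TAC, 3.65 to 5.05 CPM in BCAA-free sham and 6.21 to 20.2 CPM in control sham hearts, and each of the 10 was lower in every BCAA-free TAC than in every control TAC library. Bub1, 1 of the 10, was not listed for the BCAA-free sham libraries and is missing from their sums. The 8 fibroblast markers summed to 1197 to 2659 CPM in BCAA-free TAC, 1408 to 3025 CPM in control TAC, 654 to 739 CPM in BCAA-free sham and 897 to 929 CPM in control sham hearts. The 7 endothelial markers summed to 734 to 788 CPM in BCAA-free TAC, 875 to 981 CPM in control TAC, 826 to 950 CPM in BCAA-free sham and 865 to 1167 CPM in control sham hearts, so that BCAA-free TAC was below every other library, and 4 of the 7 were lower in every BCAA-free TAC than in every control TAC library. In whole-heart RNA, fewer cells of a type and less RNA per cell cannot be told apart, and the part of any of these cell types in the results below was not tested.

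The promoter windows of 3 members are shown because their levels took 3 different courses over the groups: Srsf2 was high in control TAC and BCAA-free sham hearts, Srsf5 was high on the BCAA-free diet, and Srsf9 was high in control TAC hearts. The windows are from RefSeq on GRCm38.p6 (mouse), run 5′ to 3′ on the gene's strand and are 300 bases long. Capitals mark matches on either strand to the CCAAT box (CCAAT), the TATA box (TATAAA), the half-site of the cyclic AMP response element (TGACG), the core bound by ETS factors (CCGGAAG) and the E-box (CACGTG).
Srsf2 (chr11:116853045-116853344, minus strand): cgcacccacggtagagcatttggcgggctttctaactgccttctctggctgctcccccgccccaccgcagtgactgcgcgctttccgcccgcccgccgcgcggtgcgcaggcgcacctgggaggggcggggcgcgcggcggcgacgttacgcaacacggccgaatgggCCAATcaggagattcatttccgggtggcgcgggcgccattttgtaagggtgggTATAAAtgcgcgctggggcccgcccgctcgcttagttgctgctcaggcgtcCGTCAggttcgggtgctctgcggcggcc
Srsf5 (chr12:80945249-80945548, plus strand): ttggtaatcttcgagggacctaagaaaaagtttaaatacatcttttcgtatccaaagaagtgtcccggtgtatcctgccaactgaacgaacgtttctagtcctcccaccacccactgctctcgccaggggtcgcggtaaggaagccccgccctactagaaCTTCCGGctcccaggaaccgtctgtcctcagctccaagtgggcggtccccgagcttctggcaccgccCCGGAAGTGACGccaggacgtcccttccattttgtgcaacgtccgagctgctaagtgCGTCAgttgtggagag
Srsf9 (chr5:115326927-115327226, plus strand): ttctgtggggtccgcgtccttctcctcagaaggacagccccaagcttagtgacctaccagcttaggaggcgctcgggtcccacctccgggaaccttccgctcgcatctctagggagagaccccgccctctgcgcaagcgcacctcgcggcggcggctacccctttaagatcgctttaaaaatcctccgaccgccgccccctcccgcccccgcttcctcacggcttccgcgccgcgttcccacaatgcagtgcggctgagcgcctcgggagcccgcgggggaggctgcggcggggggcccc

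The Srsf2 window held 1 CCAAT box and 1 TATA box upstream of the start, and 1 half-site TGACG downstream of it. The Srsf5 window held 2 ETS cores, both upstream of the start, and 2 half-sites. The ETS core nearer the start directly adjoined a half-site. The Srsf9 window held none of the 5 motifs. Taking the first listed window of each of the 10 members, 4 held CCAAT, 2 held TATAAA (Srsf2 and Srsf3), 7 held TGACG, 4 held CCGGAAG and 0 held CACGTG. Over all 13 windows listed for the members, 6 held CCGGAAG and the other counts were the same. Of 32851 RefSeq windows of this length, 37.4% held CCAAT, 13.6% held TATAAA, 20.8% held TGACG, 8.9% held CCGGAAG and 7.2% held CACGTG. A match is a run of letters and says nothing on binding.

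In the GENCODE annotation of GRCm38, Srsf2 lies at chr11:116849901-116853094 on the minus strand, Srsf5 at chr12:80945504-80950507 on the plus strand and Srsf9 at chr5:115327177-115333080 on the plus strand. All 10 members are annotated as protein coding. A transcript marked as a target of nonsense-mediated decay is annotated for 9 of the 10 members (all but Srsf10), with 3 such transcripts at most, for Srsf11. Such a transcript is annotated for 27.4% of the 14120 listed coding genes. A transcript with a retained intron is annotated for 8 of the 10, against 56.8% of the listed coding genes.

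Per length, Srsf5 had the highest level of the family. Its mean over the 12 libraries was 64.8 CPM per kb of exon (range 47.3 to 80.8), and Srsf2 followed with 34 CPM per kb (28.7 to 39.7). Srsf6 had 23.4 CPM per kb (21.2 to 26.9) and Srsf1 had 18.3 CPM per kb (16.1 to 19.8), and the ranges of these 4 genes did not overlap. Srsf3, Srsf9 and Srsf7, with 10.8, 10.7 and 10.5 CPM per kb, had ranges that overlapped one another. Srsf11 had 8.94, Srsf10 had 7.33 and Srsf4 had 5.47 CPM per kb, and each of these ranges overlapped that of its neighbour in the order. All other levels below are CPM per gene, scaled over the 12 libraries by the trimmed mean of M-values (TMM), and are not compared between genes.

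**Figure D1:**
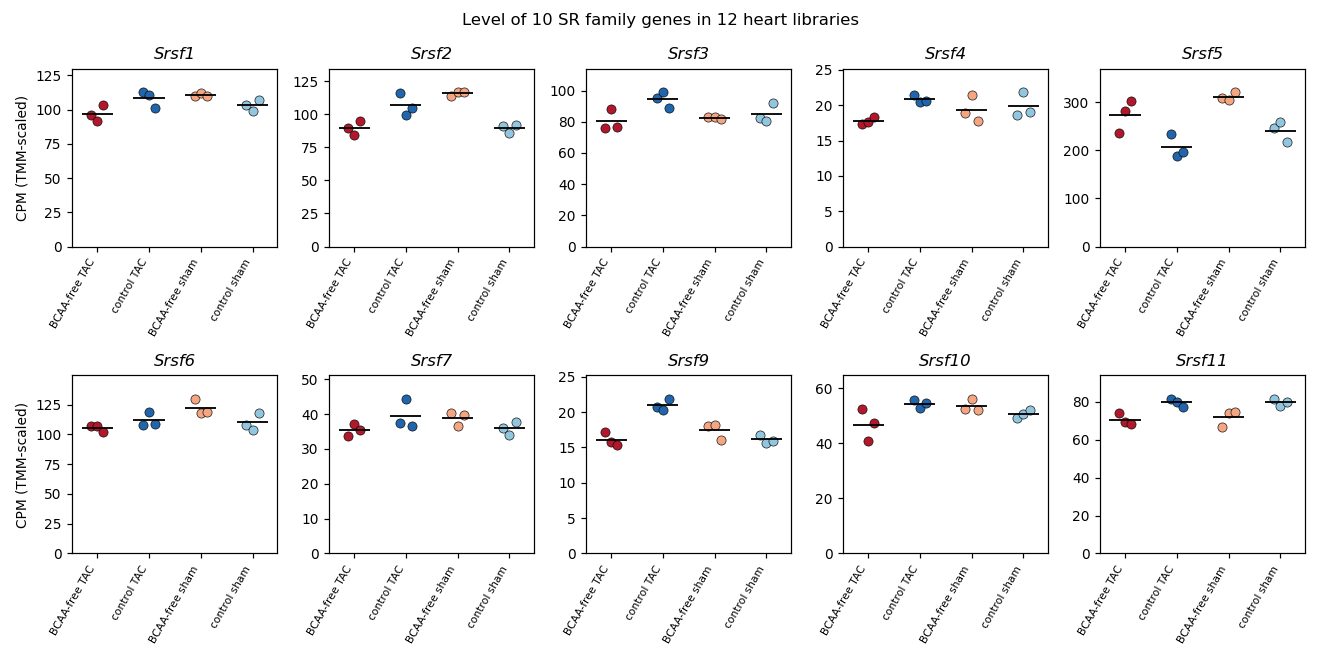
Level of each of the 10 SR family genes (vertical axis, TMM-scaled CPM, from 0) in 12 heart libraries, 1 point a library, grouped from left as BCAA-free TAC, control TAC, BCAA-free sham and control sham, with a line at each group mean. Srsf2 lay at 84.7 to 95 CPM in BCAA-free TAC and at 114 to 117 CPM in BCAA-free sham hearts, and at 99.7 to 116 CPM in control TAC and at 85.6 to 91.9 CPM in control sham hearts.

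Srsf2 crossed over between the diets. It had 89.3, 84.7 and 95 CPM in BCAA-free TAC hearts and 114, 117 and 117 CPM in BCAA-free sham hearts. It had 116, 99.7 and 105 CPM in control TAC hearts and 91, 85.6 and 91.9 CPM in control sham hearts. Every BCAA-free TAC library was thus below every BCAA-free sham library, while every control TAC library was above every control sham library. The log2 difference between TAC and sham, with its standard error, was -0.38 ± 0.07 on the BCAA-free diet and 0.25 ± 0.07 on the control diet, and the first minus the second was -0.64 ± 0.09.

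Read across diets, Srsf2 was 0.38 ± 0.05 higher (log2) in BCAA-free than in control sham hearts and -0.25 ± 0.08 (log2) in BCAA-free against control TAC hearts, with no overlap between libraries in either pair. These 4 differences share libraries and are not separate observations. With 1 library left out at a time, the difference between the TAC responses was -0.68 to -0.58. It was -0.76 when control TAC replicates 2 and 3 were both left out. The TAC difference on the control diet was then 0.37 and the diet difference in TAC hearts -0.36. The TAC effect averaged over diets was -0.06 ± 0.05 and the diet effect averaged over surgery 0.07 ± 0.05 (log2). These averages are means of the same 4 values, so they too are given with no test.

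Exons of Srsf2 share 460 bases with Mettl23 and 288 bases with Mfsd11, both on the opposite strand, out of 2958 exon bases. Whether reads were counted by strand is not given in the sources used here, so reads in these bases cannot be assigned. Neither neighbour followed the course of Srsf2. Mfsd11 had 30.1, 29.5 and 28.8 CPM in BCAA-free TAC, 31.6, 30 and 34.8 CPM in control TAC, 23.7, 24.8 and 22.5 CPM in BCAA-free sham and 26, 27.3 and 27.3 CPM in control sham hearts, so its TAC libraries were above the sham libraries on both diets. Mettl23 had 23.1, 24.7 and 25.4 CPM in BCAA-free TAC and 15.8, 18.5 and 21.2 CPM in control TAC hearts, and 20.4 to 25.3 CPM in BCAA-free sham and 19.8 to 25.9 CPM in control sham hearts.

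The 9 other members were then set beside Srsf2. On the BCAA-free diet, TAC against sham gave 9 of 9 log2 differences below 0, with a median of -0.14 and a range of -0.22 to -0.04. Of all genes tested in that comparison, 50.6% were below 0 and the median was 0.00. None of the 9 passed (limma, adjusted p under 0.05), with 0 passing in edgeR and 0 in DESeq2, against 4.32% of all genes called by limma. At an unadjusted p under 0.05 there were 4 of the 9, against 21.4% of all genes. In 3 of the 9 (Srsf1, Srsf5 and Srsf6), every TAC library was below every sham library, a pattern found in 12.7% of all genes. Srsf6, an SR protein with paired RNA recognition motifs, had 107, 107 and 102 CPM in BCAA-free TAC and 130, 118 and 119 CPM in BCAA-free sham hearts, a log2 difference of -0.22 ± 0.06 (adjusted p = 0.0775, limma).

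On the control diet the same comparison gave 7 of 9 log2 differences above 0, with a median of 0.07. Of all genes there, 49.8% were below 0 and the median was 0.00. At an unadjusted p under 0.05 (limma) there were 2 of the 9 (Srsf9 higher, Srsf5 lower), against 22.7% of all genes. Of all genes tested, 5.34% passed, and of the 9 members 1 did (Srsf9, higher). Groups did not overlap, with TAC higher, in 2 of the 9 (Srsf9 and Srsf10), against 14.5% of all genes. Srsf10, which in mouse is needed for normal heart development and triadin splicing, had 55.7, 52.8 and 54.8 CPM in control TAC and 49.3, 50.8 and 52 CPM in control sham hearts, a log2 difference of 0.10 ± 0.06 (adjusted p = 0.38, limma). Without control TAC replicates 2 and 3, 7 of the 9 were again above 0, and the log2 difference was 0.14 for Srsf10 and -0.03 for Srsf5, against -0.22 for Srsf5 with all libraries.

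**Figure D2:**
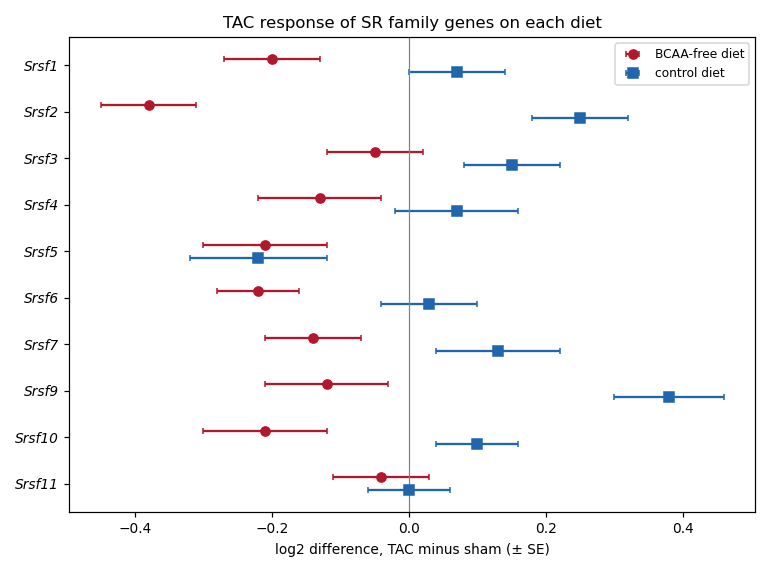
The log2 difference between TAC and sham hearts, with its standard error, for each SR family gene on the BCAA-free diet (red circles) and the control diet (blue squares), from 3 libraries a group. All 10 circles lie left of 0, and Srsf2 has the widest gap between the diets, which chose it.

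The difference of the TAC responses, BCAA-free minus control diet, was tested in 1 model of all 12 libraries. It was below 0 for 8 of the 9 members, with a median of -0.25 and a range of -0.50 to 0.02, while 50.2% of all genes were below 0. In the alternatives run it was below 0 for 8 or 9 of the 9, and for 9 of 9 with quantile normalization and without both control TAC replicates 2 and 3. None of the 9 passed in limma and 0 in edgeR, and 1 (Srsf9) passed in DESeq2. Of all genes, 0.0451% passed in limma. Shares of all genes, here and elsewhere, are those of limma. The share of all genes passing in DESeq2 is not given, so the DESeq2 calls cannot be set against it. At an unadjusted p under 0.05, 5 of the 9 were negative (Srsf1, Srsf6, Srsf7, Srsf9 and Srsf10), against 4.96% of all genes, and 3 of the 9 were so without control TAC replicates 2 and 3.

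Srsf9, a short SR protein also called SRp30c, had the most negative difference of the 9. It had 17.2, 15.8 and 15.3 CPM in BCAA-free TAC, 20.7, 20.3 and 21.9 CPM in control TAC, 18, 18.2 and 16 CPM in BCAA-free sham and 16.8, 15.7 and 15.9 CPM in control sham hearts. The 3 control TAC libraries were above all 9 others. Its TAC responses differed between diets by -0.50 ± 0.11 (log2, adjusted p = 0.162 in limma and 0.0262 in DESeq2), and by -0.48 without control TAC replicates 2 and 3 (0.371).

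The pairwise tests of Srsf9 turn on those same control TAC libraries. It rose with TAC on the control diet by 0.38 ± 0.08 (log2, adjusted p = 0.0299, limma), and on the BCAA-free diet the log2 difference was -0.12 ± 0.09 (adjusted p = 0.482). The first call was lost when any 1 of the 6 libraries was left out (adjusted p 0.065 to 0.0897) and without both control TAC replicates 2 and 3 (0.168). In TAC hearts, Srsf9 was lower on the BCAA-free than on the control diet, with a log2 difference of -0.38 ± 0.09 (adjusted p = 0.049, limma). That call was lost with quantile normalization (0.0595), when any 1 library other than BCAA-free TAC replicate 1 was left out (0.0987 to 0.171) and without both control TAC replicates (0.413). Cell division markers are likewise higher in these 3 libraries, and their part in the Srsf9 values was not tested.

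Srsf1, Srsf7 and Srsf10 were, beside Srsf6 and Srsf9, the members with an unadjusted p under 0.05 for the difference. Srsf1, the founding member SF2/ASF, had 95.9, 91.8 and 103 CPM in BCAA-free TAC, 113, 111 and 101 CPM in control TAC, 110, 112 and 110 CPM in BCAA-free sham and 103, 99 and 107 CPM in control sham hearts. Its TAC libraries lay below its sham libraries on the BCAA-free diet and overlapped them on the control diet. Between diets, the TAC responses differed by -0.27 ± 0.09 for Srsf1 (adjusted p = 0.291), -0.27 ± 0.11 for Srsf7 (adjusted p = 0.415), an SR protein with a zinc knuckle, and -0.31 ± 0.11 for Srsf10 (adjusted p = 0.356), all log2 in limma. Without control TAC replicates 2 and 3 these values were -0.34 for Srsf1, -0.20 for Srsf7 and -0.35 for Srsf10 (adjusted p 0.38 to 0.646). The value for Srsf6 was -0.25 ± 0.09 (adjusted p = 0.35), and -0.20 without both.

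Srsf3 and Srsf4 differed less. Srsf3, the smallest SR protein and an adaptor for mRNA export, had 76.1, 88.4 and 76.4 CPM in BCAA-free TAC and 95.3, 99.2 and 88.7 CPM in control TAC hearts, with 81.7 to 83.2 CPM in BCAA-free sham and 80.7 to 92 CPM in control sham hearts. Srsf4, also called SRp75, had 17.4, 17.6 and 18.3 CPM in BCAA-free TAC and 21.5, 20.4 and 20.6 CPM in control TAC hearts, with 17.8 to 21.4 CPM in BCAA-free sham and 18.6 to 21.9 CPM in control sham hearts. In both genes the TAC libraries of the diets did not overlap and the sham libraries did, and the difference of the TAC responses was -0.20 ± 0.10 for Srsf3 (adjusted p = 0.531) and -0.20 ± 0.12 for Srsf4 (adjusted p = 0.625), both log2 in limma, and -0.22 and -0.25 without control TAC replicates 2 and 3. Exons of Srsf4 share 1532 bases with Gm12992 on the opposite strand, which had 0.332 to 1.01 CPM over the 12 libraries.

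Diet was then compared at each surgery. In TAC hearts, 8 of the 9 log2 differences (BCAA-free minus control diet) were below 0, with a median of -0.17. Of all genes, 49.3% were below 0. In 6 of the 9 (Srsf3, Srsf4, Srsf6, Srsf9, Srsf10 and Srsf11), every BCAA-free library was below every control library, against 13% of all genes. By limma 1 of the 9 passed (Srsf9), against 3.38% of all genes, and 6 of the 9 were at an unadjusted p under 0.05, against 19.9% of all genes. Without control TAC replicates 2 and 3, 8 of the 9 were again below 0 and 0 passed. In sham hearts, 6 of the 9 were above 0, with a median of 0.11, while 49.5% of all genes were below 0. By limma 1 of the 9 passed (Srsf5), against 2.81% of all genes, and every BCAA-free library was above every control library in 4 of the 9 (Srsf1, Srsf5, Srsf6 and Srsf10), against 11.5% of all genes. The comparison of diets in TAC hearts and that of TAC on the BCAA-free diet share the BCAA-free TAC libraries.

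**Figure D3:**
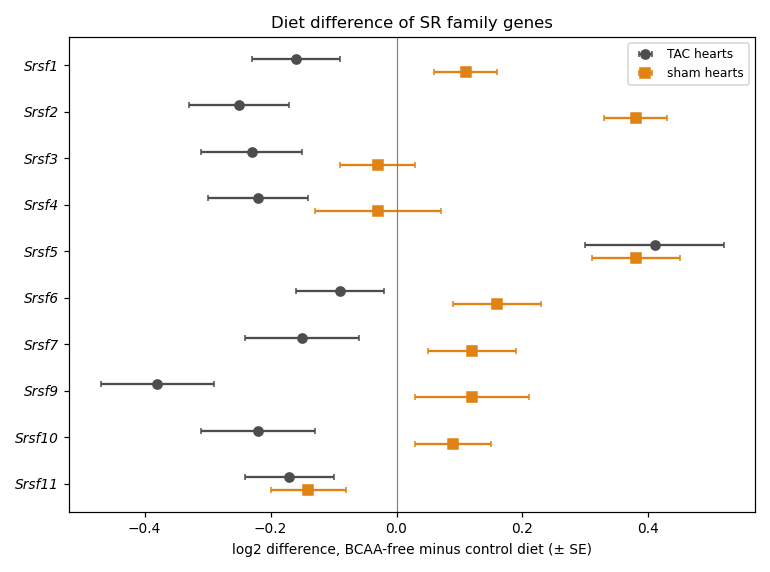
The log2 difference between the BCAA-free and the control diet, with its standard error, for each SR family gene in TAC hearts (grey circles) and sham hearts (orange squares), from 3 libraries a group. Srsf5 lies at 0.41 in TAC and 0.38 in sham hearts with all libraries, and the other genes with a value above 0 in sham hearts lie below 0 in TAC hearts.

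Srsf5, known from rat as a gene induced by insulin and in regenerating liver, took another course. It had 236, 283 and 302 CPM in BCAA-free TAC, 235, 189 and 197 CPM in control TAC, 309, 305 and 322 CPM in BCAA-free sham and 247, 259 and 218 CPM in control sham hearts. BCAA-free libraries were above control libraries at both surgeries, in TAC hearts by a margin of 236 against 235 CPM at the nearest. Averaged over surgery it rose with the BCAA-free diet by 0.40 ± 0.07 (log2, adjusted p = 0.00313, limma), and this passed with any 1 library left out. Without control TAC replicates 2 and 3, which leaves 1 control TAC library, the log2 difference was 0.30. Of all genes, 11.8% passed that test, and of the 9 members other than Srsf2, 2 did.

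The diet difference of Srsf5 was also tested at each surgery apart. It rose in BCAA-free against control sham hearts by 0.38 ± 0.07 (log2, adjusted p = 0.0157, limma), a call lost without any 1 of the 3 BCAA-free sham libraries (0.0668 to 0.0954). In TAC hearts the log2 difference was 0.41 ± 0.11 (adjusted p = 0.0862 in limma, 0.0112 in DESeq2), so it did not pass in limma. Without BCAA-free TAC replicate 1, the lowest of its group, it was 0.51 (adjusted p = 0.024), with any other 1 library left out 0.33 to 0.50 (0.0609 to 0.277), and without control TAC replicates 2 and 3 it was 0.22 (0.613), against 0.38 in sham hearts. For Srsf5 the TAC responses differed between diets by 0.02 ± 0.14 (log2, adjusted p = 0.978, limma), and by -0.17 without both (0.767). Averaged over diets, Srsf5 fell by 0.22 (SE 0.07) on the log2 scale with TAC (adjusted p = 0.0454, limma), the 1 of the 9 members to pass that test, against 17% of all genes. That call was lost in edgeR (0.063), without both control TAC replicates 2 and 3 (0.322) and in 9 of 12 fits with 1 library left out (0.0588 to 0.0987), and kept when the library left out was replicate 3 of control sham, replicate 1 of control TAC or replicate 3 of BCAA-free TAC.

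Srsf11, a protein of the family that contacts the splice factor U2AF, was the second member to pass the diet test. It had 74.1, 69.5 and 68.3 CPM in BCAA-free TAC, 81.7, 80.1 and 77.3 CPM in control TAC, 66.9, 74.4 and 74.8 CPM in BCAA-free sham and 81.3, 77.8 and 80.2 CPM in control sham hearts. Each BCAA-free library was below every control library. Averaged over surgery, Srsf11 fell by 0.16 (SE 0.04) on the log2 scale with the BCAA-free diet (adjusted p = 0.0303, limma). The call was lost without control sham replicate 1, BCAA-free sham replicate 1, control TAC replicate 1 or 2, or BCAA-free TAC replicate 2 or 3 (0.0556 to 0.0792), and without both control TAC replicates 2 and 3 (0.0905).

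The summed level of the 10 members was 799, 836 and 862 CPM in BCAA-free TAC, 884, 836 and 812 CPM in control TAC, 943, 942 and 950 CPM in BCAA-free sham and 833, 828 and 832 CPM in control sham hearts. On this TMM scale BCAA-free sham hearts stood above every other library, and the other groups overlapped. Without TMM factors they did not stand apart: control TAC replicate 1 had 945 CPM, against 935 and 928 CPM in BCAA-free sham replicates 1 and 3. Srsf5 made up 29.6%, 33.9% and 35% of the sum in BCAA-free TAC, 26.6%, 22.6% and 24.2% in control TAC, 32.8%, 32.4% and 33.9% in BCAA-free sham and 29.6%, 31.2% and 26.2% in control sham hearts.

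Other genes of splicing were described by 7 lists, of which 94 of 95 genes were tested. Of these, 77 had a difference of the TAC responses below 0, with a median of -0.10, against 50.2% and 0.00 for all genes. None passed in limma, with 14 at an unadjusted p under 0.05 (10.1% of all genes were), 0 passing in edgeR and 1 in DESeq2. It was below 0 for 27 of 27 members of the hnRNP family, RNA-binding proteins that often act against SR proteins at splice sites, with a median of -0.11, for 25 of the 27 in edgeR and without control TAC replicates 2 and 3, and for 23 to 27 with 1 library left out. It was below 0 for 9 of 9 SR protein kinases (median -0.10, 8 of 9 in edgeR and with quantile normalization, 7 to 9 with 1 library left out) and for 16 of 19 SR-like regulators (median -0.14). At an unadjusted p under 0.05 (limma) were 4 of the 27 hnRNP genes and 0 of the 9 kinases. Some values were near 0, such as -0.0033 for Ptbp2 and -0.0025 for Srpk2. All genes rest on the same 12 libraries, so their signs are not separate observations. The medians were -0.13 for 12 muscle splicing regulators, -0.07 for 10 genes of nonsense-mediated decay and -0.04 for 12 genes of splice site recognition. That of 5 heart genes tied to SR proteins in mouse was 0.11.

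**Figure D4:**
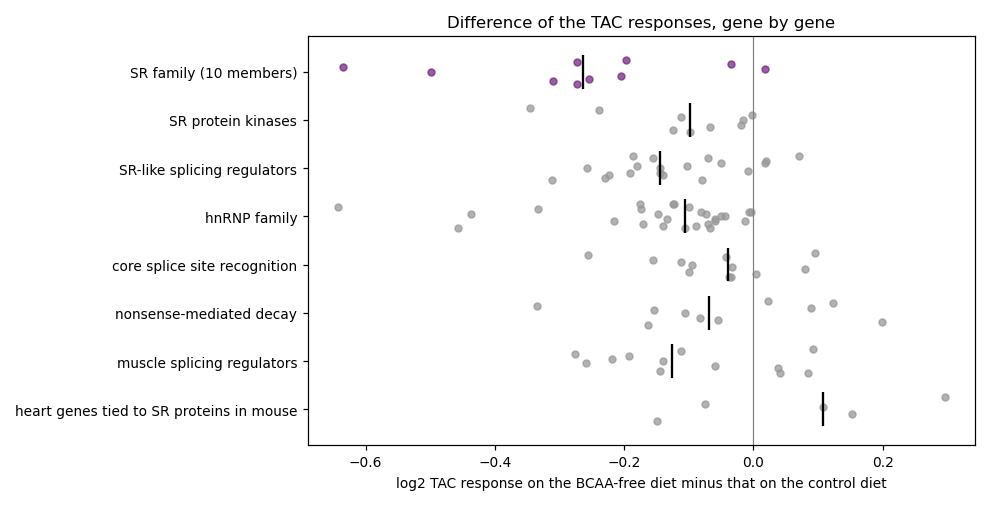
The log2 TAC response on the BCAA-free diet minus that on the control diet for each gene (points) of the SR family (purple) and of 7 lists of splicing and related heart genes (grey), with a bar at each list's median. The SR family median over its 10 genes is -0.26, which includes Srsf2, and the list medians lie between -0.14 and 0.11.

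Among these genes Hnrnpd, which also binds AU-rich elements of mRNA, had the smallest p for the difference of the TAC responses, -0.64 ± 0.12 (log2, adjusted p = 0.126, limma). In the other lists the smallest p belonged to Clk4 (-0.24), Scaf4 (-0.26), Sf3a1 (-0.26), Smg9 (-0.34), Qk (-0.28) and Ryr2 (0.30), with adjusted p of 0.356 to 0.67. Hnrnpd fell with TAC on the BCAA-free diet by 0.36 (SE 0.07) on the log2 scale (adjusted p = 0.016) and was 0.34 ± 0.08 higher in BCAA-free than in control sham hearts (adjusted p = 0.0475). Also with TAC on the BCAA-free diet, Hnrnph1 fell by 0.33 (adjusted p = 0.0317) and Rbfox1, a splicing regulator of muscle and brain, fell by 0.37 (adjusted p = 0.0353). In BCAA-free against control sham hearts Rbpms, an RNA-binding protein of muscle cells, rose by 0.37 (adjusted p = 0.0201) and Ryr2, the ryanodine receptor, fell by 0.30 (adjusted p = 0.0386). Each of these 6 calls was lost without any 1 of the BCAA-free sham libraries, and adjusted p then reached 0.174. Without BCAA-free TAC replicate 2 the Hnrnph1 call was lost too, as were the sham calls of Hnrnpd without control sham replicate 2 (and with quantile normalization, 0.0522) and of Ryr2 without control sham replicate 1. On the control diet, and between diets in TAC hearts, 0 of the 94 genes passed in limma or in edgeR and 5 did in DESeq2 in each comparison, with 19 and 23 at an unadjusted p under 0.05, against 22.7% and 19.9% of all genes. Nearest to passing were Rbfox1 (-0.46 ± 0.12 log2, adjusted p = 0.0591), Upf3a (0.35, 0.0623) and Srrm2 (-0.24, 0.0672) for TAC on the control diet, and Prpf4b (-0.30 ± 0.07 log2, adjusted p = 0.0581) and Ptbp1 (-0.30, 0.0661) for diet in TAC hearts.

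Averaged over diets, 13 of the 94 genes (13.8%) passed for TAC, 4 higher and 9 lower, a share below the 17% of all genes. Rbfox1 fell by 0.42 (SE 0.08) on the log2 scale (adjusted p = 0.00361) and Srrm2, a scaffold of the spliceosome, fell by 0.20 (adjusted p = 0.00747). Prpf4b, a kinase of spliceosome proteins, fell by 0.21 (adjusted p = 0.0138), while Srpk3, the SR protein kinase of muscle, rose by 0.20 (adjusted p = 0.0149). Upf3a, of nonsense-mediated decay, rose by 0.31 (adjusted p = 0.00806) and Raly, of the hnRNP family, rose by 0.17 (adjusted p = 0.0165). These 6 passed with any 1 library left out, and Raly did not without both control TAC replicates 2 and 3 (0.11). Son, Hnrnpl, Hnrnph3, Hnrnph1, Upf2 (all lower) and Celf2 (higher) passed with adjusted p of 0.0273 to 0.047 and lost the call in 7 to 10 of 12 fits with 1 library left out (up to 0.114). Celf2 passed without both control TAC replicates 2 and 3 (0.00638) and the other 5 did not (0.0696 to 0.187), and edgeR did not call Hnrnph1 (0.0583) or Upf2 (0.0504).

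Averaged over surgery, 7 of the 94 genes (7.45%) passed for diet, 2 higher and 5 lower on the BCAA-free diet, a share below the 11.8% of all genes. Ptbp1, a repressor of exons in the hnRNP family, fell by 0.25 (SE 0.05) on the log2 scale (adjusted p = 0.00422). Prpf4b fell by 0.24 (adjusted p = 0.0104) and Sf3b1, which binds the branch point, fell by 0.24 (adjusted p = 0.011). Rbpms rose by 0.24 (adjusted p = 0.00783) and Rbfox1 rose by 0.33 (adjusted p = 0.0174). Hnrnpf fell by 0.17 (adjusted p = 0.0226) and Smg1, a kinase of nonsense-mediated decay, fell by 0.25 (adjusted p = 0.0287), and these were lost in 5 and 7 of 12 fits with 1 library left out, while Rbfox1 was lost without BCAA-free TAC replicate 2 (0.0515). Without both control TAC replicates 2 and 3, Ptbp1 (0.0256) and Rbfox1 (0.0126) passed and the other 5 did not (0.0541 to 0.197).

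The genes whose levels over the 12 libraries were most like those of Srsf2 were found by the root mean square distance between centred log2 profiles, among 11893 genes. They were Agpat5 (0.0823), Rac1 (0.0855), Ybx1 (0.0860), Smarca5 (0.0869) and Akirin2 (0.0870). Ybx1, an RNA-binding protein, averaged 627 CPM in BCAA-free TAC, 693 CPM in control TAC, 743 CPM in BCAA-free sham and 611 CPM in control sham hearts. Rac1, a small GTPase, averaged 111 CPM in BCAA-free TAC, 131 CPM in control TAC, 133 CPM in BCAA-free sham and 113 CPM in control sham hearts. Of the other members, Srsf1 ranked 27, Srsf10 ranked 104, Srsf6 ranked 169, Srsf7 ranked 519 and Srsf9 ranked 918 in this order, Srsf4, Srsf3 and Srsf11 ranked 1382, 2171 and 3013, and Srsf5 ranked 7587. Genes were chosen for this likeness, so the values carry no test.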

How the data were processed

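Polyadenylated RNA of mouse hearts was sequenced in 12 libraries of 4 groups. The submitters' processing notes name STAR 2.5.2b, Subread 1.5.2, Trimmomatic 0.36 and DESeq2, and the genome build GRCm38. Strand handling in counting is not given in the sources used here. The deposited library columns hold a signal, reads divided by the authors' size factor for each of 4 tables, as the values show. The deposited log2 fold changes, p-values and adjusted p-values of the authors' comparisons, per the file headers, were not used for results.

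Whole reads were recovered from 100% of values (tolerance 0.001 reads). The plan set limma as the main test for normalized reads, as the deposited values are, and count tests on the recovered reads were alternatives. The main test was limma 3.58.1 (R 4.3.3) with a trend on log2(value + 4), which understates changes of low genes. Genes whose mean was 10 or more were kept. Pairwise comparisons were fitted within their table, and genes whose groups do not overlap were counted on the same normalized values. The difference of the TAC responses and the averages were fitted on 12 columns, and p-values were adjusted over all genes by Benjamini and Hochberg, with a threshold of 0.05. The fits were tested on simulated data. Levels are CPM from recovered reads with TMM factors of edgeR 4.0.16. Alternatives were edgeR, DESeq2 1.42.0, quantile normalization, a pseudocount of 1, no filter, libraries left out and a replicate block. Read counts carry counting error only, with no molecular identifiers.

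The members and lists were chosen with earlier results of these data known. Named are all members, up to 4 passing genes of each list with the smallest p (otherwise the 1 with the smallest p, of which those nearest the threshold are given) and the 5 genes most like Srsf2, with a mean of at least 50. Of 16514 identifiers, 16475 were found in GENCODE M21, and RefSeq promoter windows were found for all 10 members.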

Additional observations from a re-analysis of the deposited data

Results flagged for a closer look

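Srsf2 moved in opposite directions with TAC on the diets: every BCAA-free TAC library was below every BCAA-free sham library, and every control TAC library was above every control sham library. The difference of the TAC responses was -0.64 on the log2 scale and was not tested, since it chose the gene. Read by diet, the same difference of -0.64 stands for BCAA-free libraries that were all higher than control libraries in sham hearts and all lower in TAC hearts.

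Srsf6 and Srsf10 showed the pattern by diet too, on the deposited normalized values of each comparison. Every BCAA-free library was above every control library in sham hearts and below every control library in TAC hearts. On the TMM-scaled CPM the margins were narrow, and those in sham hearts are ties at the digits shown. For Srsf6 the nearest BCAA-free and control libraries had 118 and 118 CPM in sham and 107 and 108 CPM in TAC hearts. For Srsf10 they had 52 and 52 CPM in sham and 52.3 and 52.8 CPM in TAC hearts. The share of all genes with both separations was not counted. The difference of the responses was -0.25 for Srsf6 (adjusted p = 0.35, limma) and -0.31 for Srsf10 (adjusted p = 0.356, limma), log2, so neither passed the test of the difference itself.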

How the results depend on the processing

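Counts of members past the threshold changed as follows. For TAC on the control diet the 1 call became 0 to 0 with 1 library left out, 0 without both control TAC replicates 2 and 3, and 0 with a replicate block. For diet in sham hearts the 1 call became 0 to 1 with 1 library left out. For diet in TAC hearts the 1 call became 2 in DESeq2, 0 with quantile normalization, 0 to 2 with 1 library left out, and 0 without both control TAC replicates. For the difference of the TAC responses the 0 calls became 1 in DESeq2, and the 5 negative members at an unadjusted p under 0.05 became 3 without both control TAC replicates. For the TAC effect averaged over diets the 1 call became 0 in edgeR, 0 to 1 with 1 library left out, 0 without both control TAC replicates and 0 with a replicate block. For the diet effect averaged over surgery the 2 calls became 1 to 2 with 1 library left out and 1 without both control TAC replicates. TAC on the BCAA-free diet gave 0 calls in each alternative. The causes of these changes were not tested, and the left-out fits also rest on fewer libraries.

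Of 2002 single-gene alternatives, 1825 counted as the same, 142 lost the threshold and 32 gained it. Another 3 moved without a test, and 0 reversed a call. For values with a test, the same meant the same side of the threshold. A value that passed in neither fit could change sign and still count as the same. Srsf6 did so for TAC on the control diet, from 0.03 to -0.01 (log2) without control sham replicate 2. Same-numbered libraries correlated at -0.115 to 0.267 (median 0.0147) over 18 pairs, and 5 of 12 correlated best with their own number. These values cannot settle whether same-numbered libraries share a batch. The highest correlation, 0.267, was between control TAC replicate 1 and BCAA-free TAC replicate 1. Both held more of the TAC response markers (9207 and 10599 CPM) than the other TAC libraries (5587 to 6381 CPM). With the numbers as a block in limma, adjusted p of Srsf9 for TAC on the control diet was 0.0518, and that of Srsf5 for the TAC average was 0.064. Hnrnph1 then lost TAC on the BCAA-free diet (0.0703) and the TAC average (0.0543). The block took 6 other values past the threshold, for Hnrnpab, Clk1, Prpf4b, Ptbp1 and, in 2 comparisons, Rbfox1.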
